A study of Mus musculus with 8 samples.

Results

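The genes described here are 9 markers of the Langerhans cell, taken by symbol from a fixed list and all found among the 25247 genes of the count table. They are Cd207, Epcam, Cd24a, Ly75, Mfge8, Ptprc, Sirpa, Cd209a and Gpnmb, and they encode surface proteins or, for Mfge8, a secreted protein. The series holds bulk RNA sequencing of Langerhans cells sorted from the ear epidermis of wild-type (WT) mice and of mice lacking Ezh2 (KO, given in the labels as EZH2 -/-), all C57BL/6. Cells were sorted as DAPI-, CD45+, Ly6G-, CD103-, MHC class II+, CD24+ and EpCAM+, so Ptprc (which encodes CD45), Cd24a and Epcam are themselves genes of the gate. No treatment, time, age, Cre line or promoter is named in the labels, which also do not say whether animals were pooled or whether each library came from a separate animal.

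Langerhans cells are the resident antigen-presenting cells of the epidermis, where they are held among keratinocytes by adhesion molecules such as E-cadherin. Their hallmark is langerin, the C-type lectin encoded by Cd207, which takes up glycans and forms Birbeck granules, rod-shaped organelles found in this cell type. Ezh2 is the methyltransferase of Polycomb repressive complex 2, which places the repressive mark H3K27me3.

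The genotype of 4 of the 8 libraries is not settled by the labels. Codes RMN030 and RMN031 belong to WT, and RMN038 and RMN039 to KO, in titles and descriptions alike. For RMN032 and RMN033 the titles give KO and the descriptions WT, and for RMN036 and RMN037 the reverse holds. Each comparison is therefore given for the undisputed libraries (2 against 2), for the title codes (4 against 4) and for the description codes (4 against 4), with none preferred. Codes 030 to 033 are called the earlier code run and 036 to 039 the later, from their numbers alone. In the undisputed and description-code comparisons genotype and code run cannot be told apart.

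Library totals ran from 11051402 to 18966195 counts. Ezh2 was detected in every library, at 15.7 and 22.4 CPM (counts scaled to a common library total) in RMN030 and RMN031, 15.2 and 14.9 in RMN032 and RMN033, 18.96 and 17.6 in RMN036 and RMN037, and 12.7 and 10.5 in RMN038 and RMN039. Its WT and KO levels did not overlap by title code, as in 2.94% of all genes, with 15.7 CPM in RMN030 nearest to 15.2 CPM in RMN032. They also did not overlap in the undisputed libraries, as in 42.1% of all genes, and overlapped by description code. The summed level of 20 T cell genes was 381 and 358 CPM in RMN030 and RMN031 and 49.4 to 69.6 CPM in the other 6 libraries. Cd4 alone was at 75.4 and 70.1 CPM in RMN030 and RMN031 and made up most of the sum in the other 6, at 33.5 to 47.0 CPM. Blood genes summed to 123 to 227 CPM in the earlier run and 581 to 1356 CPM in the later, and mitochondrial transcripts to 1.02% to 1.87% and 3.76% to 4.03% of counts.

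Cd207 was among the most abundant transcripts of every library, which matches the cell type in the labels. Keratinocyte transcripts were abundant too. The 21 keratinocyte genes found summed to 18080 to 23117 CPM, with Krt14 alone at 6463 to 8876 CPM, and the 9 members to 15346 to 18049 CPM. None of the 9 markers passed the threshold of an adjusted p under 0.05 in any of the 3 comparisons. The nearest to a genotype difference were Mfge8, Gpnmb, Cd24a, Sirpa and Epcam. All of these separated the undisputed groups, as 42.1% of all genes did. Mfge8 also did not overlap between title-code groups, as was seen in 2.94% of all genes, and Gpnmb was lowest in RMN030 and RMN031.

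The promoters shown here are those of Cd207 and Mfge8, the members highest per length, and that of Gpnmb, the member with the largest SD of log2 level. Each holds the 250 bases before the annotated start in RefSeq, build GRCm38.p6, read 5′ to 3′ on the strand of the gene. Capitals mark matches, on either strand, to GAGGAA (a core bound by PU.1 and other ETS factors), TGTGGT (a core bound by Runx factors) or TGACTCA (an AP-1 element). No match overlapped another.
Cd207, chr6:83677858-83678107, minus strand: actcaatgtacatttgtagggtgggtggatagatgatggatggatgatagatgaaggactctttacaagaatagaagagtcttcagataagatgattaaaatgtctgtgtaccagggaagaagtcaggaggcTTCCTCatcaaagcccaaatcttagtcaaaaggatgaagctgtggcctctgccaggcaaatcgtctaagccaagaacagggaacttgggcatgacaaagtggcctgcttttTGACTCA
Mfge8, chr7:79149061-79149310, minus strand: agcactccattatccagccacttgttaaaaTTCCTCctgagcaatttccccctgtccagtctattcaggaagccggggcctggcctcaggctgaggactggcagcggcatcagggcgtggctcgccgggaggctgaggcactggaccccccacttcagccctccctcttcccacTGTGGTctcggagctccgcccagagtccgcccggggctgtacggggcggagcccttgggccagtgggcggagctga
Gpnmb, chr6:49036268-49036517, plus strand: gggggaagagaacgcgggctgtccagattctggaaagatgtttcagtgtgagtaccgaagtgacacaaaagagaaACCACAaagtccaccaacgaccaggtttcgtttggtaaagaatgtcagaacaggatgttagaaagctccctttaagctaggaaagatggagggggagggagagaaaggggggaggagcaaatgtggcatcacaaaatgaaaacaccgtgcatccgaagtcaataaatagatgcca

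The Cd207 window held GAGGAA on the opposite strand, 118 bases before the start, and TGACTCA beginning 7 bases before it. In the Mfge8 window GAGGAA began 220 bases before the start on the opposite strand and TGTGGT 76 bases before it, and in the Gpnmb window TGTGGT began 175 bases before it on the opposite strand. Of all 32851 promoters of the same length, 23.25% held GAGGAA, 14.05% TGTGGT and 4.46% TGACTCA. Entries were matched for 7 of the 9 members. Among the other members, Ptprc also held GAGGAA, 158 bases before a start, and Ly75 held TGTGGT, 200 bases before it. These matches describe letters in a window and say nothing of binding in these cells.

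**Figure D1:**
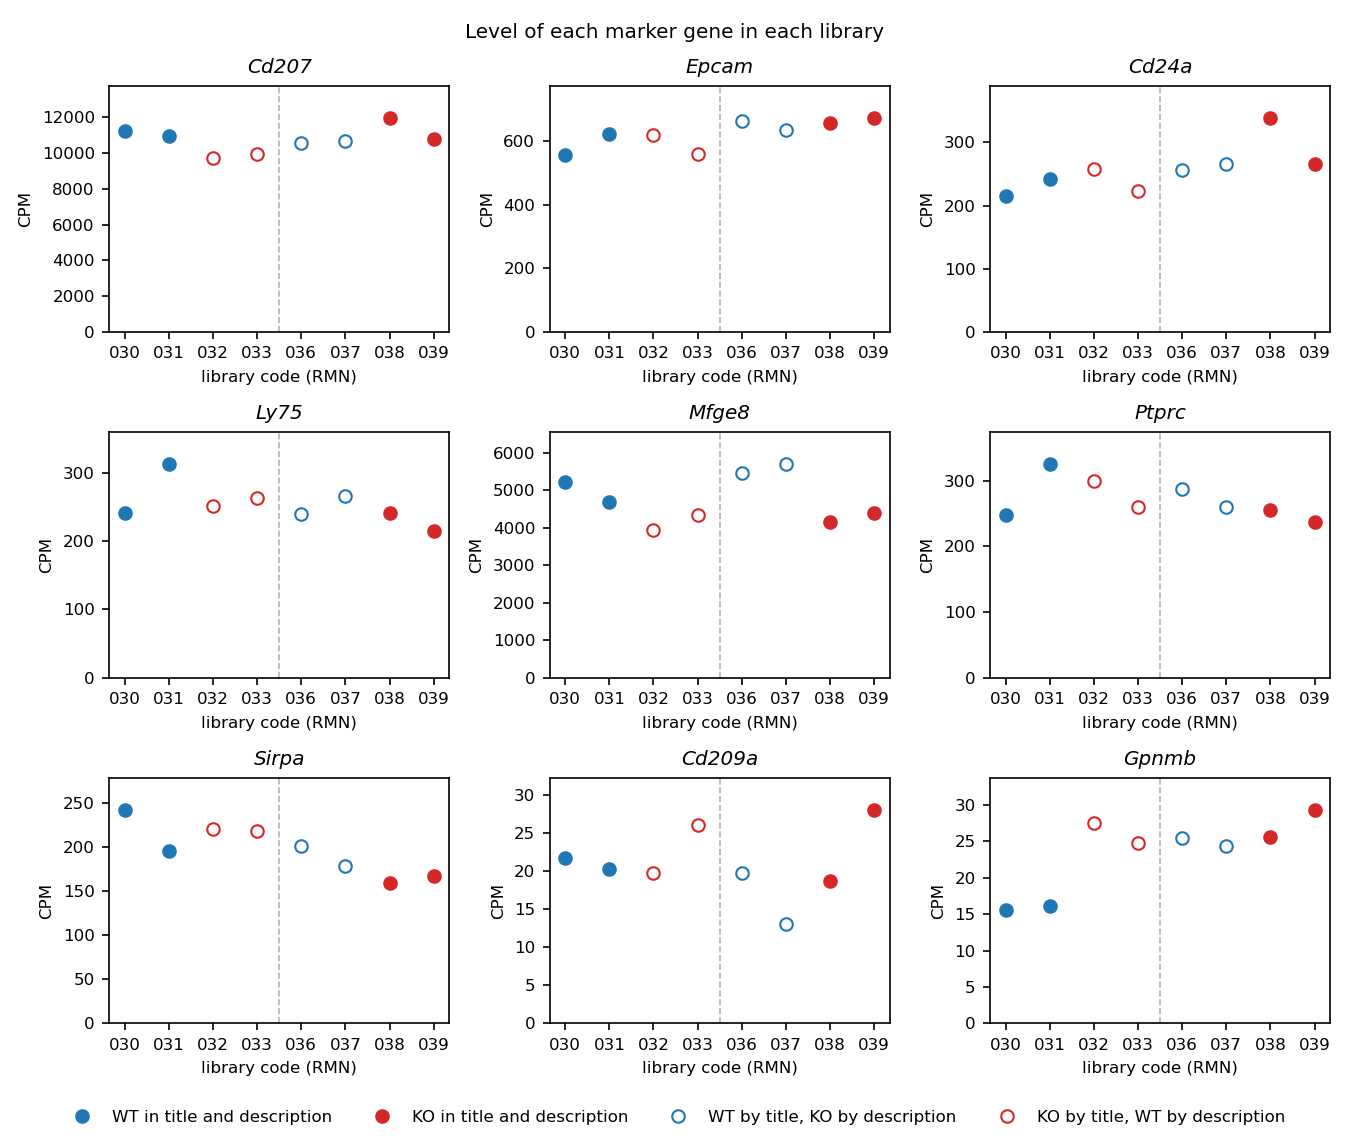
Level of each of the 9 marker genes (vertical axis, CPM, from 0) in each of the 8 libraries (horizontal axis, library code). Filled points are libraries whose genotype is undisputed and open points are those whose titles and descriptions differ, with blue for WT and red for KO by title, and the dashed line separates the code runs. Mfge8 was lower in all 4 red libraries (3942 to 4384 CPM) than in all 4 blue ones (4692 to 5705 CPM), and Gpnmb was lowest in RMN030 and RMN031 (15.5 and 16.2 CPM).

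Among the genes of the sort gate, Ptprc, Epcam and Cd24a were expressed in every library, and each varied by less than 1.6-fold across them. Ptprc (chromosome 1, 138062861 to 138175708, minus strand of GRCm38) encodes CD45, the tyrosine phosphatase carried by nucleated blood-derived cells. It stood at 248 and 326 CPM in the undisputed WT libraries RMN030 and RMN031, 300 and 261 in RMN032 and RMN033, 288 and 260 in RMN036 and RMN037, and 256 and 238 CPM in the undisputed KO libraries RMN038 and RMN039. The groups overlapped under every reading of the labels, and the highest level, in RMN031, belonged to WT. Its edgeR log2 fold change (KO minus WT) was -0.17 ± 0.15 (SE) among undisputed libraries, -0.09 ± 0.10 under title codes and -0.08 ± 0.10 under description codes, with adjusted p-values of 0.763, 0.998 and 0.821. Counts of A130071D04Rik, an unconfirmed model overlapping Ptprc on the same strand, came to at most 3.78% of those of Ptprc.

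Epcam (chromosome 17, 87635979 to 87651129, plus strand) encodes a homophilic adhesion protein of epithelia that Langerhans cells also carry. Its level was 558 and 621 CPM in the undisputed WT libraries RMN030 and RMN031, 620 and 559 in RMN032 and RMN033, 664 and 634 in RMN036 and RMN037, and 658 and 672 CPM in the undisputed KO libraries RMN038 and RMN039. Every library of the later code run lay above every library of the earlier run. KO therefore lay above WT in the undisputed and description-code groups, while the title-code groups overlapped. Of all genes, 42.1% did not overlap in the undisputed groups and 8.82% did not by description code. By description code the mean was 589 ± 35.8 CPM in WT and 657 ± 16.4 CPM in KO (SD, n = 4 each). That is 0.20 on the log2 scale (SE 0.07, adjusted p = 0.229 by edgeR). The undisputed value was 0.22 (SE 0.13, adjusted p = 0.566), and the title-code value was 0.02 (SE 0.10, adjusted p = 0.998). Keratinocyte genes, led by Krt14, summed to 18080 to 23117 CPM in the earlier run and 18752 to 21393 CPM in the later. The part of keratinocyte RNA in the level of Epcam was not tested. Within that list Krt1 was at 33.6 to 59.5 CPM in the earlier run and 81.6 to 101 CPM in the later, and Krt79 at 59.4 to 94.9 CPM and 115 to 221 CPM. By description code the log2 fold change was 0.87 for Krt1 (SE 0.17, adjusted p = 0.0163) and 1.11 for Krt79 (SE 0.19, adjusted p = 0.0077). Of the 20 keratinocyte genes tested by description code with edgeR, 2 were higher (Krt1 and Krt79) and 2 lower in KO. Of all genes 2.02% passed in that comparison. The lower genes were Krt15 (-0.45, SE 0.08, adjusted p = 0.0098) and Trp63 (-0.74, SE 0.15, adjusted p = 0.0226). By title code 0 of 20 passed, with Krt1 at -0.29, Krt79 at -0.30, Krt15 at 0.13 and Trp63 at 0.05.

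Cd24a (chromosome 10, 43578284 to 43584265, plus strand) encodes CD24, a glycosylphosphatidylinositol-anchored sialoglycoprotein also found on erythroid cells and keratinocytes. It was measured at 215 and 242 CPM in the undisputed WT libraries RMN030 and RMN031, 258 and 223 in RMN032 and RMN033, 256 and 266 in RMN036 and RMN037, and 339 and 265 CPM in the undisputed KO libraries RMN038 and RMN039. RMN038 stood above all others, and both undisputed KO libraries were above both undisputed WT libraries. Of all genes, 42.1% did not overlap between these undisputed groups. The log2 fold change was 0.45 ± 0.15 (SE) among undisputed libraries, 0.15 ± 0.13 under title codes and 0.31 ± 0.10 under description codes, with adjusted p-values of 0.286, 0.998 and 0.188. Blood genes were also at their highest sum, 1356 CPM, in RMN038, and their part in the level of Cd24a was not tested. Of the 50-base windows of its principal transcript, 3.91% are shared with the related sequence Gm6212, so a small part of its counts is uncertain.

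The other gate genes are given as CPM, a scale that also grows with transcript length. Of the MHC class II genes, which encode the chains that present peptides to CD4+ T cells, H2-Ab1 averaged 24013 CPM (21175 to 29585), H2-Eb1 14324 CPM (12384 to 18035) and H2-Aa 12825 CPM (10890 to 15825). All 3 were highest in RMN030. Itgae, which encodes the CD103 chain selected against, was present at 4.34 to 13.7 CPM, from 48 to 259 counts per library. Ly6g was not analysed here. By edgeR, 0 of the 6 positive gate genes and 0 of 1 negative gate gene tested passed the threshold in any comparison. At an unadjusted p under 0.05 the positive genes numbered 1 in the undisputed libraries, 0 by title code and 2 by description code, where 11.3%, 4.59% and 12.6% of all genes did so.

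Of the 3 lectin-family members, Cd207, Ly75 and Cd209a, Cd207 had the highest level per length and the smallest coefficient of variation. Cd207 (chromosome 6, 83671215 to 83677857, minus strand) was found at 11253 and 10965 CPM in the undisputed WT libraries RMN030 and RMN031, 9706 and 9944 in RMN032 and RMN033, 10556 and 10701 in RMN036 and RMN037, and 11963 and 10768 CPM in the undisputed KO libraries RMN038 and RMN039. It ranked between places 6 and 8 among all detected genes of each library, and the groups overlapped under every reading. The coefficient of variation over the 8 libraries was 6.63%. The SD of its log2 level lay at the 3.26th percentile of the 8515 genes with a mean of at least 10 CPM. The log2 fold change came to 0.08 ± 0.12 (SE) among undisputed libraries, -0.04 ± 0.09 under title codes and 0.11 ± 0.08 under description codes, with adjusted p-values of 0.885, 0.998 and 0.634. RMN032 and RMN033 were the lowest libraries and RMN038 the highest, so that title-code KO held both ends of the range. The title-code difference accordingly had opposite signs in the runs, at -0.22 (SE 0.11) in the earlier and 0.12 (SE 0.06) in the later. The test of the difference between runs gave 0.35 on the log2 scale (SE 0.11, adjusted p = 0.443), and 0.0186% of all 16146 genes passed that test.

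Ly75 (chromosome 2, 60292103 to 60383303, minus strand) encodes DEC-205, an endocytic receptor that carries antigen to MHC class II compartments. Its level was 241 and 313 CPM in the undisputed WT libraries RMN030 and RMN031, 252 and 264 in RMN032 and RMN033, 239 and 267 in RMN036 and RMN037, and 242 and 215 CPM in the undisputed KO libraries RMN038 and RMN039. RMN031 was the highest and RMN039 the lowest, and the groups overlapped under every reading of the codes. The log2 fold change came to -0.23 ± 0.15 (SE) among undisputed libraries, -0.13 ± 0.10 under title codes and -0.11 ± 0.10 under description codes, with adjusted p-values of 0.648, 0.998 and 0.731. An antisense gene, Gm13571, overlaps Ly75, and since the strand setting is not given in the sources used here, its reads cannot be told from those of Ly75. Its own counts were at most 2.47% of those of Ly75.

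Cd209a (chromosome 8, 3743397 to 3748984, minus strand) encodes a mouse homologue of the human lectin DC-SIGN and is used as a marker of dermal and monocyte-derived dendritic cells. It lay at 21.7 and 20.3 CPM in the undisputed WT libraries RMN030 and RMN031, 19.7 and 26.1 in RMN032 and RMN033, 19.8 and 13.01 in RMN036 and RMN037, and 18.8 and 28.1 CPM in the undisputed KO libraries RMN038 and RMN039, resting on 217 to 495 counts. The groups overlapped under every reading, with RMN039 highest and RMN037 lowest. The log2 fold change came to 0.20 ± 0.28 (SE) among undisputed libraries, 0.30 ± 0.21 under title codes and -0.10 ± 0.22 under description codes, with adjusted p-values of 0.870, 0.998 and 0.916. The sum of 11 dermal dendritic cell genes, which includes Cd209a and Cd24a, ran from 585 to 749 CPM. Of these 11 genes 7 were detected in every library, among them Ccr7 at 109.98 to 179 CPM and Ccl22 at 61.6 to 169.9 CPM, and Xcr1 and Sirpb1c were at 0 in at least 4 libraries. The part of dermal dendritic cells in the level of Cd209a was not tested. The genes whose profile over the 8 libraries was nearest to that of Cd209a were Pias3, Fam57a and Cd300a, with root mean square differences of 0.12, 0.12 and 0.13 in centred log2 level among 7805 genes compared.

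In the wider list of 24 C-type lectins and endocytic receptors, Clec7a (dectin-1, a receptor for fungal beta-glucan) had the highest mean CPM, 587, on a scale not corrected for length. Next by CPM were Clec4n (dectin-2) at 138 CPM, Mgl2 at 131 CPM and Clec4a1 at 71.0 CPM. Close relatives of Cd209a were also detected in every library, with means of 12.9 CPM for Cd209b, 12.8 for Cd209c and 12.9 for Cd209d. Cd209f and Cd209g were at 0 counts in 3 libraries each. Of the 19 list members tested by edgeR, 0 passed the threshold in the undisputed libraries, 0 by title code and 1 by description code, where 2.02% of all genes did. At an unadjusted p under 0.05 they numbered 3, 0 and 5, beside 11.3%, 4.59% and 12.6% of all genes. The gene that passed was Cd36, a scavenger receptor for lipids. It was at 4.28, 4.96, 1.59 and 3.59 CPM in RMN030 to RMN033 and at 7.46, 6.59, 15.1 and 13.7 CPM in RMN036 to RMN039. No library of the later run overlapped the earlier, as in 8.82% of all genes. The log2 fold change by description code was 1.61 (SE 0.38, adjusted p = 0.0468 by edgeR). The median log2 fold change of the tested list members was -0.02, 0.10 and -0.04 in the undisputed, title-code and description-code comparisons, beside -0.0016, -0.0033 and -0.0085 over all genes tested.

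Mfge8 was lower in each title-code KO library than in each title-code WT library. It lies on chromosome 7, 79133768 to 79149060, on the minus strand, and encodes MFG-E8 (lactadherin), a secreted protein that bridges phosphatidylserine on dying cells to integrins of phagocytes. Its level was 5219 and 4692 CPM in the undisputed WT libraries RMN030 and RMN031, 3942 and 4336 in RMN032 and RMN033, 5451 and 5705 in RMN036 and RMN037, and 4165 and 4384 CPM in the undisputed KO libraries RMN038 and RMN039. The mean by title code was 5267 ± 432 CPM in WT and 4207 ± 199.9 CPM in KO (SD, n = 4 each), with the lowest WT library above the highest KO library. Non-overlap of this kind was seen in 2.94% of all genes by title code, and Mfge8 was the single member to show it.

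The title-code log2 fold change of Mfge8 was -0.33 (SE 0.09, adjusted p = 0.973 by edgeR). Within the earlier code run it was -0.30 (SE 0.12, adjusted p = 0.618) and within the later -0.36 (SE 0.05, adjusted p = 0.391). The test of the difference between runs gave -0.05 (SE 0.13, adjusted p = 0.975). With code run as a covariate the log2 fold change was -0.33 (SE 0.07, adjusted p = 0.379) by edgeR and -0.31 (adjusted p = 0.134) by limma voom. DESeq2, which called 0.314% of all genes in that fit, gave -0.33 with an adjusted p of 0.0186, the sole title-code call of a member. In the undisputed libraries the value was -0.17 (SE 0.12, adjusted p = 0.687). These libraries are part of the title-code groups, so their lack of overlap was fixed in advance, and 42.1% of all genes showed it. By description code, where RMN036 and RMN037 count as KO, it was 0.15 (SE 0.12, adjusted p = 0.659) and the groups overlapped. The direction of Mfge8 therefore depends on which label is read.

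Sirpa (chromosome 2, 129592835 to 129632228, plus strand) encodes an inhibitory receptor of myeloid cells that binds CD47 and signals through the phosphatases encoded by Ptpn6 and Ptpn11. Its level was 242 and 195 CPM in the undisputed WT libraries RMN030 and RMN031, 221 and 218 in RMN032 and RMN033, 200.5 and 178 in RMN036 and RMN037, and 159 and 167 CPM in the undisputed KO libraries RMN038 and RMN039. Both undisputed KO libraries were below both undisputed WT libraries, a lack of overlap shown by 42.1% of all genes. The groups overlapped by title code and by description code. The log2 fold change came to -0.38 ± 0.16 (SE) among undisputed libraries, -0.10 ± 0.13 under title codes and -0.27 ± 0.10 under description codes, with adjusted p-values of 0.404, 0.998 and 0.239. Cd47, the gene of its ligand, averaged 243 CPM (189 to 280). The profiles nearest to that of Sirpa were those of Ech1, Sharpin and Hivep2, with root mean square differences of 0.05, 0.06 and 0.07 in centred log2 level.

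Gpnmb was low in RMN030 and RMN031 and higher in all 6 other libraries. It lies on chromosome 6, 49036546 to 49070929, on the plus strand, and encodes a type I transmembrane glycoprotein known from melanocytes and macrophages. Its level was 15.5 and 16.2 CPM in the undisputed WT libraries RMN030 and RMN031, 27.5 and 24.7 in RMN032 and RMN033, 25.5 and 24.3 in RMN036 and RMN037, and 25.6 and 29.3 CPM in the undisputed KO libraries RMN038 and RMN039, from 203 to 469 counts. The undisputed groups did not overlap, at 15.8 ± 0.465 CPM in WT and 27.4 ± 2.65 CPM in KO (SD, n = 2 each). The same held for 42.1% of all genes. The log2 fold change was 0.84 ± 0.26 (SE) among undisputed libraries, 0.39 ± 0.20 under title codes and 0.36 ± 0.19 under description codes, with adjusted p-values of 0.221, 0.998 and 0.486. RMN030 and RMN031 are also the libraries high in T cell genes. Without them the log2 fold change of Gpnmb was 0.10 ± 0.17 (SE) under title codes and 0.06 ± 0.18 (SE) under description codes, with adjusted p-values of 0.983 and 0.975. By title code it was 0.68 (SE 0.23, adjusted p = 0.465) within the earlier run, which holds RMN030 and RMN031, and 0.17 (SE 0.21, adjusted p = 0.930) within the later. Genes of fibroblasts, endothelium and melanocytes summed to 49.6 and 54.7 CPM in RMN032 and RMN033, 74.4 and 63.0 CPM in RMN030 and RMN031 and 139 to 218 CPM in the later run. The melanocyte gene Pmel was at 1.145 and 3.07 CPM in RMN030 and RMN031, 3.06 and 5.01 CPM in RMN032 and RMN033 and 2.81 to 11.03 CPM in the later run. Melanocyte genes differed in direction among the undisputed libraries. By edgeR the log2 fold change was 0.649 for Pmel (SE 0.649) and 0.813 for Tyrp1 (SE 1.396). It was -0.595 for Dct (SE 1.018) and -0.0198 for Mitf (SE 0.386), and none of these genes passed the threshold. The part of melanocytes or macrophages in the level of Gpnmb was not tested.

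Over the 8 libraries the genes with profiles most like that of Gpnmb were Moxd1, Pigc and Gja1, with root mean square differences of 0.06, 0.08 and 0.11 in centred log2 level. Moxd1 was at 18.3 and 20.6 CPM in RMN030 and RMN031 and at 30.5 to 37.4 CPM in the other 6 libraries. These genes were chosen for their likeness, which is a description of the 8 libraries.

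**Figure D2:**
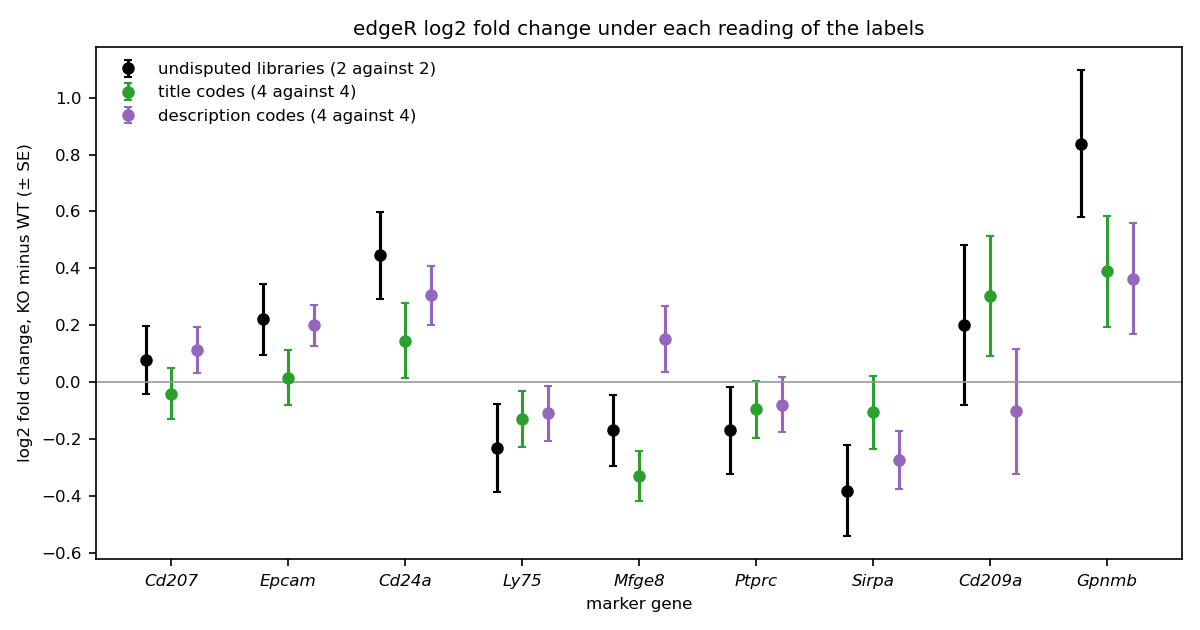
The edgeR log2 fold change, KO minus WT (vertical axis, points with SE bars), of each of the 9 marker genes (horizontal axis) in the undisputed libraries (black), by title code (green) and by description code (purple). Values ran from -0.38 for Sirpa to 0.84 for Gpnmb, both in the undisputed libraries, and Mfge8 was below 0 by title code (-0.33) and above 0 by description code (0.15).

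Taking the 9 genes as a list, 0 passed the threshold in each of the 3 comparisons by edgeR, DESeq2 and limma voom. The share of all genes that passed by edgeR was 0.794% in the undisputed libraries, 0% by title code and 2.02% by description code. At an unadjusted p under 0.05, edgeR counted 3 members in the undisputed libraries (Cd24a, Sirpa and Gpnmb), 1 by title code (Mfge8) and 3 by description code (Epcam, Cd24a and Sirpa). The share of all genes at that p was 11.3%, 4.59% and 12.6%. The median log2 fold change of the members was 0.08, -0.04 and 0.11 in that order, beside -0.0016, -0.0033 and -0.0085 over all genes. Values were above 0 for 5, 4 and 5 of the 9 members and for 49.8%, 49.4% and 48.9% of all genes. Groups did not overlap for 5 members in the undisputed libraries, where 42.1% of all genes showed the same, and for Epcam alone by description code, where 8.82% did. Without RMN031, which leaves 1 WT library assumed to vary like the KO libraries, 3 members passed in the undisputed comparison, where 4.02% of all genes did. They were Cd24a (log2 fold change 0.50, adjusted p = 0.0391), Mfge8 (-0.27, adjusted p = 0.0289) and Sirpa (-0.55, adjusted p = 0.0115). The smallest values with a library left out were 0.26 for Cd24a without RMN038 and -0.07 for Mfge8 and -0.20 for Sirpa without RMN030, and no member passed without RMN030, RMN038 or RMN039. A p that misses the threshold here does not show that levels were alike, and in bulk samples fewer expressing cells and less RNA per cell cannot be told apart.

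Compared per kilobase of the principal transcript, the 9 markers covered a wide range of levels. Cd207 averaged 7051 ± 468 CPM per kilobase, Mfge8 2229 ± 304, Epcam 306 ± 21.8 and Cd24a 142 ± 20.7 (SD over 8 libraries). None of these 4 overlapped with its neighbour. Ptprc (57.9 ± 6.33), Sirpa (49.6 ± 7.19) and Ly75 (49.1 ± 5.56) came next and overlapped with one another. Cd209a (14.1 ± 3.11) and Gpnmb (6.37 ± 1.36) closed the order, without overlap between them. Per kilobase of merged exons Ptprc fell to 14.9, beside Cd209a at 13.2, because its merged length of 18313 bases exceeds the 4702 bases of the principal transcript.

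**Figure D3:**
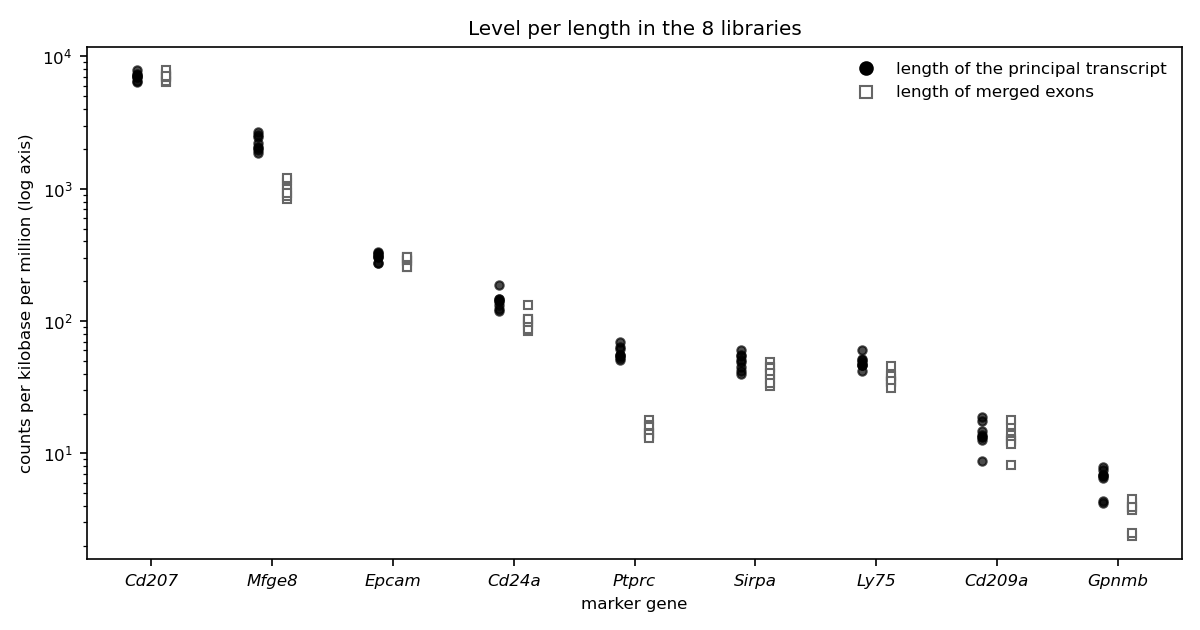
Level of each of the 9 marker genes per length (vertical axis, CPM per kilobase, log scale) in the 8 libraries, per kilobase of the principal transcript (filled circles) and of merged exons (open squares). By the principal transcript the order ran from Cd207 at a mean of 7051 to Gpnmb at 6.37, and the choice of length moved Ptprc most.

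Relative spread followed another order. The coefficient of variation was 6.63% for Cd207, 7.13% for Epcam, 10.9% for Ptprc, 11.3% for Ly75, 13.7% for Mfge8, 14.5% for Sirpa and 14.6% for Cd24a. Gpnmb at 21.4% and Cd209a at 22.03% were the most variable and also had the fewest counts. Among genes of at least 10 CPM the SD of log2 level put Epcam at the 4.66th percentile and Gpnmb at the 78.8th.

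Genes of proteins known to work with the markers did not pass the threshold. Of this list of 17, those named by CPM were Cldn1 (2749 CPM), a claudin, Sdc4 (2024 CPM), a heparan sulphate proteoglycan, and St14 (543 CPM), a membrane serine protease known to cleave EpCAM. Tested by edgeR were 16, 14 and 14 of them in the undisputed, title-code and description-code comparisons, with 0 past the threshold and 3, 0 and 2 at an unadjusted p under 0.05. Of all genes 11.3%, 4.59% and 12.6% lay under that p. The median log2 fold change of these partners was -0.09, 0.05 and -0.08, beside the medians over all genes given above. The part of keratinocyte RNA in the levels of Cldn1, Sdc4 and St14 was not tested.

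Among 20 other surface genes of Langerhans cells, named by the highest CPM, Cd74, the invariant chain of MHC class II, averaged 30592 CPM. Il1r2, a decoy receptor for interleukin-1, averaged 7713 CPM, Csf1r, the receptor through which interleukin-34 maintains Langerhans cells, 2023 CPM, and the costimulatory gene Cd86 1187 CPM. By edgeR 0 of 20, 0 of 19 and 1 of 19 tested passed the threshold, as did 0.794%, 0% and 2.02% of all genes. At an unadjusted p under 0.05 there were 4, 1 and 3 of them, beside 11.3%, 4.59% and 12.6% of all genes. The gene that passed by description code was Tgfbr2, a receptor for TGF-beta, the cytokine that keeps Langerhans cells in the epidermis. Its level was 113, 108, 122 and 139.99 CPM in RMN030 to RMN033 and 175, 169, 145 and 172 CPM in RMN036 to RMN039. The description-code groups, which are also the code runs, did not overlap, as in 8.82% of all genes. The log2 fold change was 0.50 (SE 0.10, adjusted p = 0.0258 by edgeR). The title-code value was 0.03 (SE 0.18, adjusted p = 0.998).

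**Figure D4:**
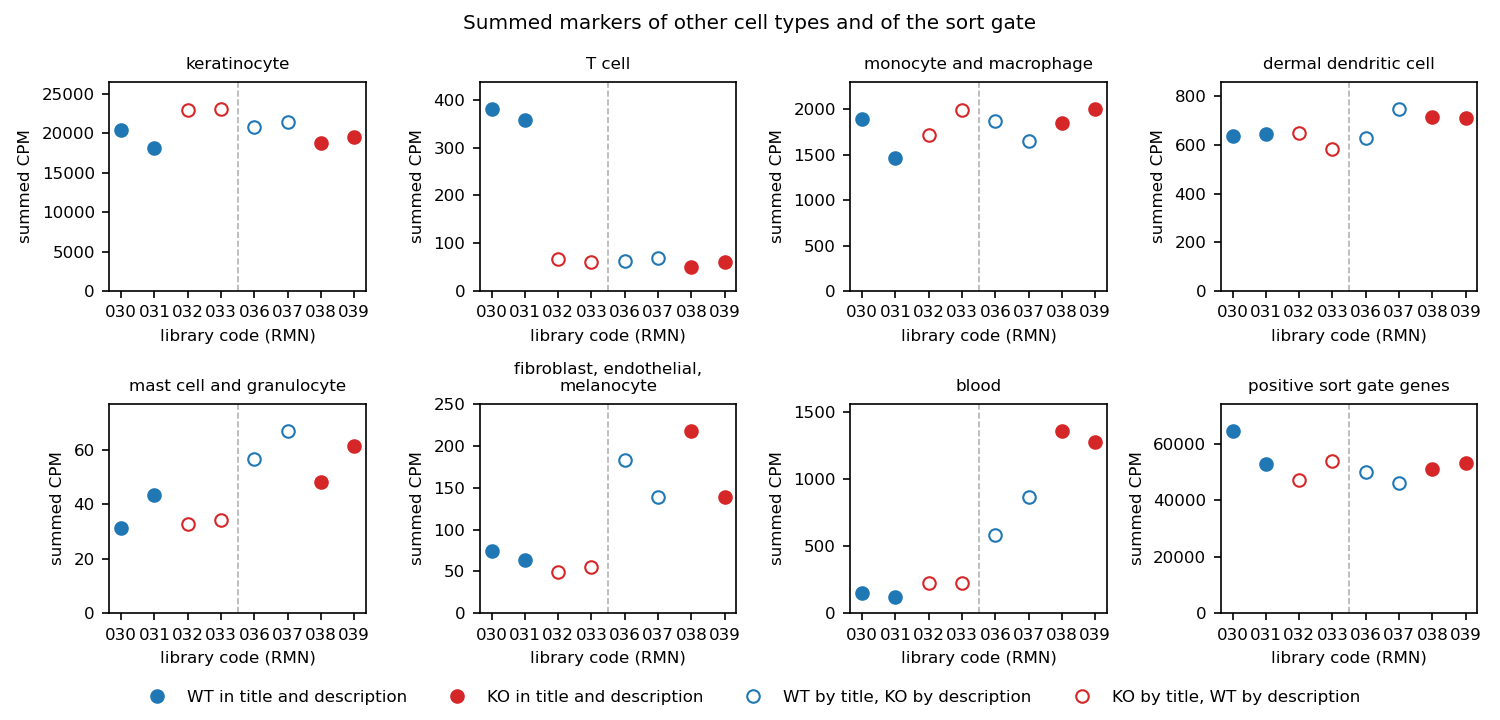
Summed level (vertical axis, CPM, from 0) of marker genes of other cell types and of the positive sort gate genes in each of the 8 libraries (horizontal axis, library code), with colours for genotype labels as in the plot of marker levels. The T cell sum was 381 and 358 CPM in RMN030 and RMN031 against at most 69.6 CPM elsewhere, and the blood sum was at most 227 CPM in the earlier run and at least 581 CPM in the later.

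Markers of other cell types were present to differing degrees beside the members. The monocyte and macrophage list summed to 1468 to 2007 CPM, of which Apoe, which Langerhans cells also express, made up 83.5%. In the undisputed comparison 3 of its 13 tested genes were higher in KO by edgeR, where 0.794% of all genes passed in either direction. They were Lyz2 (log2 fold change 1.01, SE 0.16, adjusted p = 0.0142), F13a1 (1.66, SE 0.30, adjusted p = 0.027) and Cd163 (2.14, SE 0.39, adjusted p = 0.0318). In that comparison 7 of the 13 were above 0, and C1qa (-0.68), C1qb (-0.33), C1qc (-0.47) and Cd14 (-0.41) were among those below 0. By title code 0 of 14 passed by edgeR, with Lyz2 at 0.0053, F13a1 at -0.06 and Cd163 at -0.10. By description code 3 of 14 were higher (Lyz2, F13a1 and Ccr2) and 1 lower, C1qa (-0.82, SE 0.18, adjusted p = 0.0317 by edgeR). Of all genes 2.02% passed by description code. Cd163 did not pass by description code. Fcgr1, Vsig4 and Fcgr4 were at 0 in at least 4 libraries. In the T cell list, 12 of 20 genes were at 0 in at least 1 library, and Cd3d, Lat and Cd8b1 were at 0 in at least 4. By edgeR 12 of 19 tested T cell genes were lower in KO in the undisputed comparison and 0 of 10 passed by description code. All 5 tested blood genes were higher in KO in both comparisons. Mast cell and granulocyte genes summed to 31.2 to 43.5 CPM in the earlier run and 48.2 to 66.9 CPM in the later. Kit made up 59.4% of this sum, at 26.2 to 37.3 CPM in the earlier run and 18.2 to 30.9 CPM in the later. By description code 4 of 5 tested genes were higher in KO by edgeR (Mcpt4, Cma1, Tpsb2 and Cpa3). Their largest log2 fold change was 4.05, for Mcpt4, and that of Kit was -0.33. In the undisputed comparison 1 of 6 passed, Mcpt4, and by title code 0 of 5. Fibroblast, endothelial and melanocyte genes summed to 49.6 to 74.4 CPM in the earlier run and 139 to 218 CPM in the later. By edgeR 3 of 12 tested genes of this list were higher in KO in the undisputed comparison and 4 of 10 by description code. Epcam was also higher in the later run, and the part of the mast cell and fibroblast list sums in its level was not tested.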

How the data were processed

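Bulk RNA sequencing libraries of sorted Langerhans cells were read as raw counts per gene, deposited by the authors in 1 table of 25247 Ensembl genes and 8 libraries, with 0 columns left unused. Reads were aligned with STAR 2.5.2b and counted with featureCounts 1.5.0 on GRCm38 (mm10), per the submitters' processing notes. Which annotation release was used, whether strand was used, and how read pairs were counted are not given in the sources used here. Of counts from 1 to 20, 60.1% were even, so mates may have been counted separately.

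Symbols were matched for 25080 identifiers, and 167 had none. CPM used the column total, ranks the genes with a count above 0, and lengths the GENCODE M21 annotation of GRCm38. Differential expression was fitted over all genes in R 4.3.3 by edgeR 4.0.16 (TMM, filterByExpr, robust quasi-likelihood, two-sided, Benjamini-Hochberg adjustment, threshold 0.05). Errors of fold changes are SE from the F statistic and those of levels are SD. Because separate animals are not stated, p-values reflect variation between libraries that may be of technical origin. Alternatives were DESeq2 1.42.0, limma 3.58.1 voom, RLE size factors, every gene kept or a minimum of 1 CPM, totals without mitochondrial and haemoglobin genes, each library left out, a replicate block, code run as covariate and each run alone. Chosen after seeing the data were fits without RMN030 and RMN031, run-covariate fits with other tools or libraries left out, and principal transcript length. The fits were tested on simulated counts. The members and gene lists were chosen with earlier results of these data known. Genes named beyond the members were the gate genes, up to 4 most abundant of each related list, those past the threshold in any comparison, and the 3 most alike to each of the 3 most variable members. A gene that this rule names is not reported here. Cd47, the relatives of Cd209a and single markers of other cell types with values lie outside that rule and were chosen after their values were seen.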

Additional observations from a re-analysis of the deposited data

Results flagged for a closer look

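Among 36 groups of 4 libraries examined, in which chance gives such a gap in about 1 of 20 groups (1.8 groups), a single library stood far from the others of its group in 2 cases, both RMN038 among the description-code KO libraries. Cd207 was at 11963 CPM in RMN038, with the other 3 libraries at 10556 to 10768 CPM. Cd24a was at 339 CPM in RMN038, with the other 3 at 256 to 266 CPM.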

How the results depend on the processing

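No member changed sides of the threshold apart from Mfge8 by title code with code run as covariate in DESeq2 (1 member called) and the 3 members called without RMN031, so that leaving out a library gave 0 to 3 members called in the undisputed comparison. Genes called in the undisputed comparison numbered 117, 440 with no filter, 305 with DESeq2 and 263 to 629 with each library left out. By title code they numbered 0, 1 with no filter, 19 with DESeq2, 57 within the earlier code run, 46 and 3 with code run as covariate in DESeq2 and limma voom, and 0 to 4 with each library left out. By description code 296 genes became 660 with DESeq2 and 140 to 219 with each library left out. The difference between runs gave 3 genes, 97 with DESeq2 and 0 to 8 with each library left out. The cause of these shifts was not tested.

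Title-code log2 fold changes that changed sign were Cd207 at 0.12 within the later run, Epcam at -0.0173 with limma voom, -0.0372 within the earlier run and -0.0551 without both RMN030 and RMN031, and Sirpa at 0.0015 without both. With each library left out, signs changed for Cd207 (-0.00093 to 0.14), Ptprc (-0.34 to 0.0095) and Cd209a (-0.13 to 0.46) in the undisputed comparison. They changed for Cd207 (-0.11 to 0.0099) and Epcam (-0.0334 to 0.0733) by title code, with Epcam also at -0.00817, -0.0181 and -0.00539 and Cd207 at 0.00681 when code run was a covariate too, and for Cd209a (-0.32 to 0.0594) by description code. In the undisputed comparison the other 6 members kept their sign, with values from 0.26 to 0.60 for Cd24a, -0.39 to -0.06 for Ly75 (without RMN030 and RMN031 respectively), -0.27 to -0.07 for Mfge8, -0.55 to -0.20 for Sirpa, 0.16 to 0.27 for Epcam and 0.72 to 0.93 for Gpnmb. The description-code value of Ly75 ran from -0.16 to -0.03. In the difference between runs they changed for Ly75 (-0.15 to 0.18), Mfge8 (-0.16 to 0.0447), Ptprc (-0.23 to 0.12) and Sirpa (-0.34 to 0.0203). Median ranks by CPM, per kilobase of merged exons and per kilobase of the principal transcript were 7, 4.5 and 5.5 for Cd207, 194, 159.5 and 161.5 for Epcam, 574, 456.5 and 351 for Cd24a, and 603.5, 1316.5 and 1190.5 for Ly75. They were 14.5, 35.5 and 17.5 for Mfge8, 561, 3080 and 1026 for Ptprc, 779.5, 1157 and 1139 for Sirpa, 6318.5, 3405.5 and 3777.5 for Cd209a, and 5561.5, 7440.5 and 5864.5 for Gpnmb.

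Same-numbered libraries did not deviate together, with correlations of 0.05 to 0.10 by title code and -0.0068 to 0.03 by description code. Among WT libraries, only RMN036 by title code and only RMN032 by description code correlated best with the KO library of its own number. The best match was not sought for KO libraries. With the replicate number as a block 0 genes were called by title code and 174 by description code, with 0 members in either. The undisputed groups share no number. Depth limits Cd209a and Gpnmb most, at 203 to 495 counts per library.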
